A study of Mus musculus with 6 samples.

Results

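Glycolysis and the response to low oxygen were followed through 33 genes in E0771 cells, a mouse mammary carcinoma line, after the cells had met activated CD8 T cells. The 33 genes were taken by symbol from a table of 28063 genes. They comprise 2 membrane transporters of glucose and lactate, 16 glycolytic enzymes, 3 regulators of glycolytic flux and pyruvate use, 3 oxygen-sensing genes, and 9 other genes known as targets of the hypoxia-inducible factor (HIF). RNA was sequenced in 6 libraries of 3 populations with 2 libraries each: E0771 cells expressing the PD mutant of Malt1 (Malt1_PD, an abbreviation that the labels do not spell out), E0771 cells expressing wild-type Malt1 (Malt1_WT), and E0771 cells carrying the control vector (Vector). MALT1 is a paracaspase that relays signals to NF-kB. For 12 hours every population shared its dish with activated CD8 T cells, 3 for each tumour cell, and it was then washed, trypsinised and plated anew, with lysis 6 hours later. All 6 libraries therefore come from cells exposed to T cells, and cells without that exposure were not analysed here. Each form of Malt1 was a population of its own, so the form and other differences between populations cannot be told apart. Whether the 2 libraries of a population stem from separate cultures is not stated, so p-values gauge the spread between libraries, and that spread may be technical.

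Glycolysis breaks glucose down to pyruvate in the cytosol, and lactate dehydrogenase reduces that pyruvate to lactate, which leaves the cell through monocarboxylate transporters. When oxygen is scarce, the prolyl hydroxylases that mark HIF alpha subunits for destruction lose activity, and HIF raises transcription of glucose transporters, most glycolytic enzymes, the pyruvate dehydrogenase kinase Pdk1 and genes of blood vessel growth and pH control. Tumour cells often run this programme even with oxygen present. HIF itself is controlled mainly through the stability of its protein, and messenger RNA levels measure neither HIF protein nor glycolytic flux.

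Total counts were 15815122 and 16746124 in the Malt1_PD libraries, 14045390 and 19962014 in Malt1_WT, and 17929408 and 17994769 in Vector. Levels are given as CPM, which relate a count to the size of its library after TMM scaling, and as RPKM, which are CPM divided by gene length in kilobases, where genes are compared with each other. Malt1 itself stood at 106 and 95.7 CPM in Malt1_PD, 67.2 and 82.1 CPM in Malt1_WT, against 23.8 and 31.3 CPM in Vector, which follows the labels. RNA of T cells was scarce: the 13 of 17 listed T cell markers that had a row of counts summed to 2.47 and 2.496 CPM in Malt1_PD, 1.57 and 2.24 CPM in Malt1_WT, against 2.42 and 2.58 CPM in Vector, mostly from Lck, and Cd8a had 1 count in all 6 libraries together. Among mammary epithelial markers, Krt8 stood between 108 and 124 CPM and Epcam between 6.16 and 8.97 CPM, while Krt18, Krt19 and Cdh1 were below the filter on low counts. The fibroblast markers, which Pdgfra and Pdgfrb led, summed to 314 and 301 CPM in Malt1_PD, 307 and 352 CPM in Malt1_WT, against 249 and 311 CPM in Vector. Myeloid markers summed to 28.9 and 31.9 CPM in Malt1_PD, 29.8 and 30.1 CPM in Malt1_WT, against 44.0 and 37.1 CPM in Vector. Most of this sum came from S100a8 and Cd14, while Adgre1, Itgam, Csf1r, Aif1 and Fcer1g were below the filter. The sum was higher in both Vector libraries, and its part in the results was not tested. In bulk RNA, fewer cells with a transcript and less of it per cell cannot be told apart.

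HIF binds DNA at the core letters ACGTG or GCGTG, and the promoters of genes that lead the results are shown to let these letters be seen. Promoter sequences from RefSeq (build GRCm38.p6) matched 32 of the 33 genes by symbol, with 46 annotated starts in all; Ndrg1 had no match. Windows ran from 250 bases before to 50 bases after the start and were searched on both strands, with overlapping matches counted. ACGTG was in 56.5% of the 46 promoters. It was in 25.3% of 12442 promoters of genes tested here and in 19.6% of all 32851 promoters. The 12442 promoters belong to 9742 of the 14675 genes tested, and each annotated start counts as 1 promoter. GCGTG was in 56.5% of the members' promoters, 50% of those of genes tested and 32.4% of all promoters. Either core was in 80.4%, 61.3% and 43.8% of these promoter sets, and 29 of the 32 genes had at least 1 match. The genes were picked in part as known HIF targets, and a match of letters is a description, not a binding site. Ldha held the most matches of any member over the full window, which reaches 50 bases past the start. Egln3, Egln1 and Adm had the smallest p-values in the comparison of Malt1_WT with Vector. Shown are the 250 bases before the start, 5′ to 3′ on the gene's strand, with both cores, read on either strand, in capitals. The stretches are Ldha (chr7:46845554-46845803, plus strand), Egln3 (chr12:54203875-54204124, minus strand), Egln1 (chr8:124949255-124949504, minus strand) and Adm (chr7:110627407-110627656, plus strand).
Ldha: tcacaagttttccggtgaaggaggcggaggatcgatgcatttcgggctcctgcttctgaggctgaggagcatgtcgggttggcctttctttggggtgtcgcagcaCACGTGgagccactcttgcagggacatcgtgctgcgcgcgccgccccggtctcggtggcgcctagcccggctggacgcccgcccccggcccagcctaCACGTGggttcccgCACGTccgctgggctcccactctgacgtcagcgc
Egln3: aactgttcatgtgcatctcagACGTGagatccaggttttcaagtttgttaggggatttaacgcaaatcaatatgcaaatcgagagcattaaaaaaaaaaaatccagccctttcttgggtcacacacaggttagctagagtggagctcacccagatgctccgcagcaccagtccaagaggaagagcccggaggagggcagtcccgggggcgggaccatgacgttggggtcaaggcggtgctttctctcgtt
Egln1: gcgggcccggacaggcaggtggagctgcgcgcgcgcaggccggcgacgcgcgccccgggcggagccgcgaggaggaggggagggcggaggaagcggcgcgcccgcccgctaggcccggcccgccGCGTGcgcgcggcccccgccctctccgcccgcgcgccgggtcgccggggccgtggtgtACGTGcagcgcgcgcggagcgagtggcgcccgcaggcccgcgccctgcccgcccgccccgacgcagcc
Adm: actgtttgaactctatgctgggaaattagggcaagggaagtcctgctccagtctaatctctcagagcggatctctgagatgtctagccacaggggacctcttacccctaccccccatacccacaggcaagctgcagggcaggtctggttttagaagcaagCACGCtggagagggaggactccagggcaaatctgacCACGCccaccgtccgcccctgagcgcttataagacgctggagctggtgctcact
Ldha showed 5 matches of ACGTG in these bases, the farthest beginning 145 bases and the nearest 34 bases before the start, and CACGTG counts on both strands. Egln3 showed 1 match, 229 bases before the start. Egln1 showed 1 ACGTG and 1 GCGTG, and Adm showed 2 GCGTG, both on the other strand.

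Cells with the PD form of Malt1 were first set against Vector cells. Ndrg1, a stress-responsive gene long known to be induced by low oxygen, and the glycolytic enzyme gene Gapdh were lower in Malt1_PD, by 0.28 and 0.14 log2 units, and no member passed the test. Ndrg1 had 254 and 262 CPM in Malt1_PD, against 319 and 308 CPM in Vector. The Malt1_PD libraries both lay below the Vector libraries, a log2 fold change of -0.28 ± 0.08 (SE; adjusted p = 0.377, quasi-likelihood test of edgeR, with Benjamini-Hochberg adjustment over all genes). Gapdh, which makes the high-energy intermediate that Pgk1 uses to form ATP, had 6398.5 and 6291 CPM in Malt1_PD, against 7247 and 6749 CPM in Vector. These groups did not overlap either, and the log2 fold change was -0.14 ± 0.06 (SE; edgeR adjusted p = 0.579). Without Vector replicate 2, where the lone Vector library is assumed to vary like the other groups, both passed, with edgeR adjusted p of 0.0383 for Ndrg1 and 0.0342 for Gapdh. They were the 2 members called in that fit, beside 928 of 15336 genes (6.05%), and the fit without Vector replicate 1 called 0 members.

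Other leading members stood on either side of Vector. Pgam1, the phosphoglycerate mutase, had 432 and 438 CPM in Malt1_PD, against 403 and 387 CPM in Vector. Egln1 had 348 and 350.5 CPM in Malt1_PD, against 322 and 314 CPM in Vector. Both Malt1_PD values were the higher ones for these 2 genes, with log2 fold changes of 0.14 ± 0.07 each (SE; edgeR adjusted p of 0.635 and 0.645). Aldoa, the main aldolase, had 1672 and 1685 CPM in Malt1_PD, against 1961 and 1748 CPM in Vector. Eno2, the neuronal enolase, had 16.3 and 13.6 CPM in Malt1_PD, against 18.5 and 16.9 CPM in Vector. For these 2 genes both Malt1_PD libraries lay below Vector, with log2 fold changes of -0.14 ± 0.08 and -0.25 ± 0.13 (SE; edgeR adjusted p of 0.646 and 0.664).

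Of the 33 genes, 32 passed the filter on low counts, and Aldoc did not. With Malt1_PD against Vector, edgeR called 0 of the 32 members and 1 of 14675 genes (0.00681%), Malt1 itself. DESeq2, which called 0.254% of genes, and limma-voom, which called 0.00681%, also called 0 members. At an unadjusted p under 0.05, edgeR had 2 members lower and 0 higher, beside 4.88% of all genes lower and 3.73% higher. The libraries did not overlap for 8 members that were higher in Malt1_PD (25.0% of the 32, against 18.4% of all genes) and for 9 that were lower (28.1%, against 19.7%). The members' median log2 fold change was -0.01, with 12 above 0 and 20 below, beside a median of -0.0011 over all genes tested, and it turned to 0.0029 without Malt1_PD replicate 2. The 95% interval of the fold change lay within 1.5-fold in either direction for 31 of the 32 members, the exception being Car9.

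Cells with wild-type Malt1 were likewise set against the same Vector libraries, so this comparison and the preceding one share them. The prolyl hydroxylase genes Egln3 and Egln1, the vasodilator peptide gene Adm, the phosphofructokinase gene Pfkl and the kinase gene Pdk1 were higher in both Malt1_WT libraries, by 0.18 to 0.28 log2 units, and none passed the test. Egln3 had 379 and 368 CPM in Malt1_WT, against 316 and 302 CPM in Vector. Egln1 had 375 and 373 CPM in Malt1_WT, against 322 and 314 CPM in Vector. Both genes encode enzymes that hydroxylate HIF alpha subunits and are themselves known HIF targets. Their log2 fold changes were 0.27 ± 0.07 and 0.23 ± 0.07 (SE; edgeR adjusted p of 0.454 and 0.544). Adm had 66.2 and 73.1 CPM in Malt1_WT, against 61.6 and 53.4 CPM in Vector. Malt1_WT lay above Vector in both libraries, and the log2 fold change was 0.28 ± 0.10 (SE; edgeR adjusted p = 0.631).

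Pfkl, the liver-type phosphofructokinase that commits sugar to glycolysis, had 407 and 392 CPM in Malt1_WT, against 350.4 and 354 CPM in Vector. Pdk1, which phosphorylates pyruvate dehydrogenase and so keeps pyruvate out of the mitochondrial cycle, had 165 and 163 CPM in Malt1_WT, against 142 and 148 CPM in Vector. Each of these genes was at 0.18 log2 units, with SE of 0.07 and 0.08 and edgeR adjusted p of 0.662 and 0.698. Ndrg1 was on the other side, with 286 and 270.4 CPM in Malt1_WT, below both Vector values given above, and a log2 fold change of -0.17 ± 0.08 (SE; edgeR adjusted p = 0.700). Ndrg1 thus lay lowest in Malt1_PD, higher in Malt1_WT and highest in Vector, with no overlap between any of the 3 groups.

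With Malt1_WT against Vector, edgeR called 0 of the 32 members and 1 of 14675 genes (0.00681%), Cd274, which encodes PD-L1. Malt1 itself did not pass in this comparison, at a log2 fold change of 1.44 ± 0.15 (SE; edgeR adjusted p = 0.092). The fit thus did not call even a rise of this size in the introduced gene. DESeq2, with 0.253% of genes called, and limma-voom, with 0.00681%, called 0 members. At an unadjusted p under 0.05, edgeR had 5 members higher and 0 lower, beside 3.30% of all genes higher and 3.80% lower. Libraries without overlap were found for 12 members that were higher in Malt1_WT (37.5%, against 15.5% of all genes) and 4 that were lower (12.5%, against 17.1%). After removal of the trend with gene length that separates the libraries of a group, an alternative count added after the data were seen, 9 members were higher without overlap (28.1%, against 18.7% of all genes). The median log2 fold change was 0.04, with 21 members above 0 and 11 below, beside -0.0012 over all genes. It was 0.07 without Malt1_WT replicate 2, 0.07 without Vector replicate 1 and 0.08 without Vector replicate 2. The 95% interval stayed within 1.5-fold for 31 of 32 members, all but Car9.

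The PD form was then set against wild-type Malt1, the comparison in which most members lay on the same side. Of the 32 members, 26 had a log2 fold change below 0 and 6 above it, with a median of -0.06 beside -0.0016 over all genes tested, and each difference was small. Egln3 had 319 and 329.6 CPM in Malt1_PD, against the Malt1_WT values of 379 and 368 CPM. Neither Malt1_PD library reached Malt1_WT, and the log2 fold change was -0.20 ± 0.07 (SE; unadjusted p = 0.0260, edgeR adjusted p = 1). Pdk1 had 146 and 145 CPM in Malt1_PD, against 165 and 163 CPM in Malt1_WT. Its log2 fold change was -0.17 ± 0.08 (SE; edgeR adjusted p = 1), and the Malt1_PD values lay within the range of the Vector libraries.

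The alpha subunits of the collagen prolyl hydroxylase, P4ha1 and P4ha2, were lower in Malt1_PD as well. P4ha2 had 221 and 220.5 CPM in Malt1_PD, 247 and 239 CPM in Malt1_WT, against 228 and 214 CPM in Vector. P4ha1 had 123 and 121 CPM in Malt1_PD, 131 and 136 CPM in Malt1_WT, against 124 and 135 CPM in Vector. For both, Malt1_PD lay below Malt1_WT without overlap, at log2 fold changes of -0.14 ± 0.08 and -0.13 ± 0.08 (SE; edgeR adjusted p = 1 for each). Slc2a1, the GLUT1 glucose transporter, had 319.3 and 319.6 CPM in Malt1_PD, 358 and 338 CPM in Malt1_WT, against 330.5 and 329 CPM in Vector. Hk1, a hexokinase that traps glucose in the cell, had 291 and 292 CPM in Malt1_PD, 308 and 345 CPM in Malt1_WT, against 297 and 345 CPM in Vector. Malt1_PD was the lowest of the 3 groups for these 2 genes, with log2 fold changes against Malt1_WT of -0.12 ± 0.07 and -0.16 ± 0.10 (SE; edgeR adjusted p = 1 for each).

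With Malt1_PD against Malt1_WT, edgeR called 0 members and 1 of 14675 genes (0.00681%), Cd274, which was lower in Malt1_PD. Cd274 had 4.87 and 3.57 CPM in Malt1_PD, 469 and 545 CPM in Malt1_WT, against 4.22 and 4.37 CPM in Vector. DESeq2, with 0.00356% of genes called, and limma-voom, with 0.00681%, called 0 members. At an unadjusted p under 0.05, edgeR had 1 member lower, Egln3, and 0 higher, beside 0.838% of all genes lower and 1.08% higher. Both Malt1_PD libraries lay below both Malt1_WT libraries for 16 of the 32 members (50%, against 16.1% of all genes), and above them for 2, Pgam1 and Car9 (6.25%, against 16.0% of all genes). The 16 were Slc2a1 and Slc16a3 among the transporters, Hk1, Hk2, Gpi1, Pfkl, Aldoa and Eno1 among the enzymes, Pdk1, Egln1 and Egln3, and Ndrg1, Ankrd37, Adm, P4ha1 and P4ha2. With scalings and a background added after the data were seen, the count was 18 with DESeq2 size factors (56.2%, against 16.4% of all genes), 15 with the length trend removed (46.9%, against 17.7%), and 15 of the 28 members with a mean log2 CPM of at least 5 (against 16.5% of 6255 such genes). The members' values are not independent of each other, since all were read from the same 4 libraries. The median was -0.09 without Malt1_WT replicate 2. Intervals stayed within 1.5-fold for 31 of 32 members, again all but Car9.

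**Figure D1:**
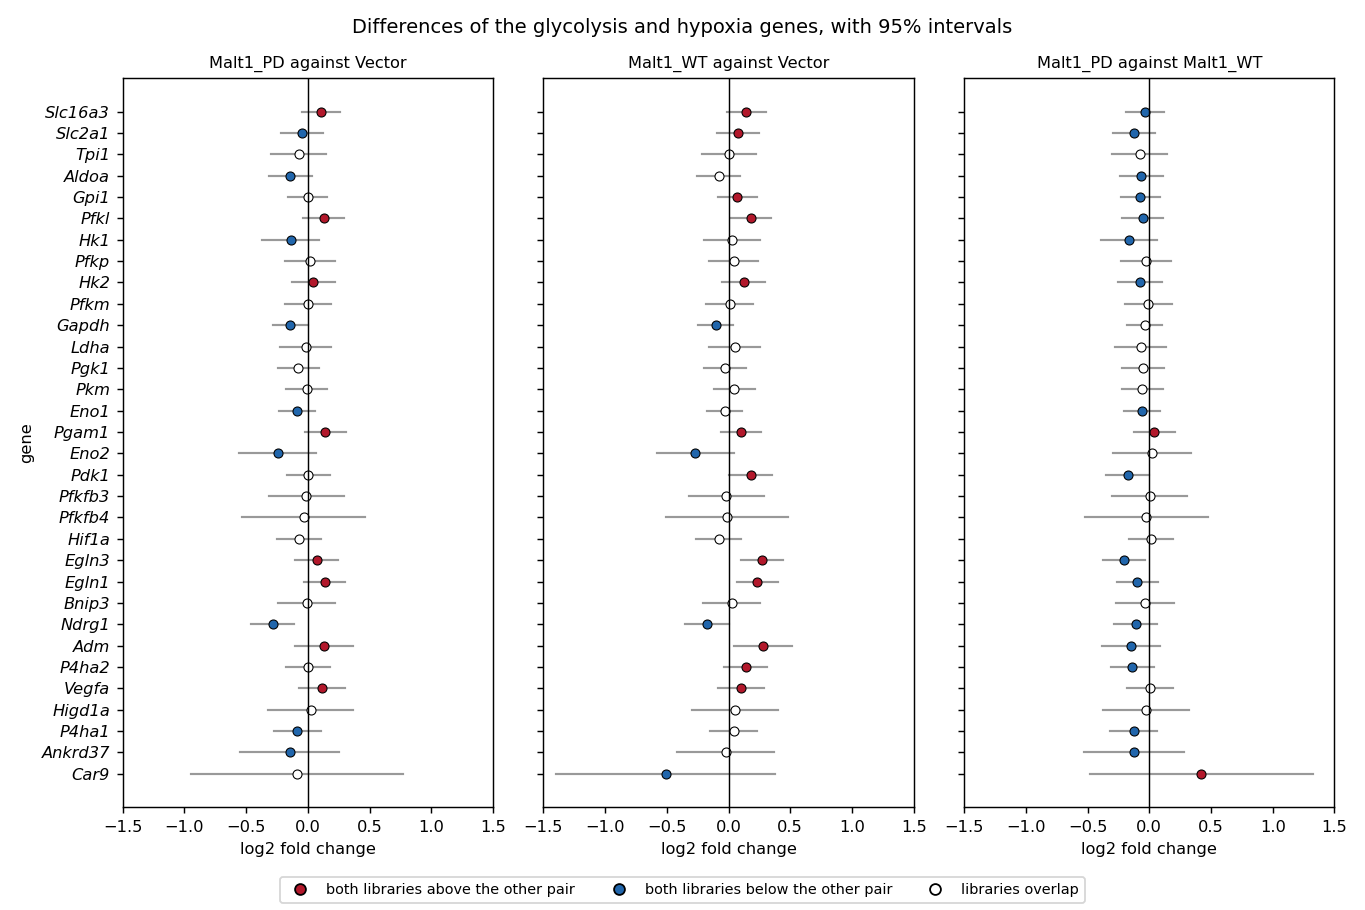
Log2 fold changes (x axis) of the 32 members tested (rows, grouped by role) in the 3 comparisons, with 95% intervals as bars; filled points mark members whose libraries do not overlap between the groups. All intervals but that of Car9 lie within 1.5-fold of no change, and in Malt1_PD against Malt1_WT 26 of 32 points lie below 0.

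The same can be seen library by library, as the deviation of each member's log2 CPM from its own mean over the 6 libraries. The median deviation was -0.02 and -0.04 in the Malt1_PD libraries, 0.05 and 0.02 in Malt1_WT, and -0.02 and -0.03 in Vector. Both Malt1_WT libraries thus stood above all others, while the libraries of Malt1_PD and Vector overlapped. Summed over all 33 genes, the members took 2.95% ± 0.00311 of the counts in Malt1_PD, 3.07% ± 0.106 in Malt1_WT and 3.05% ± 0.169 in Vector (SD, n = 2 each), a sum that the most abundant enzymes decide.

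**Figure D2:**
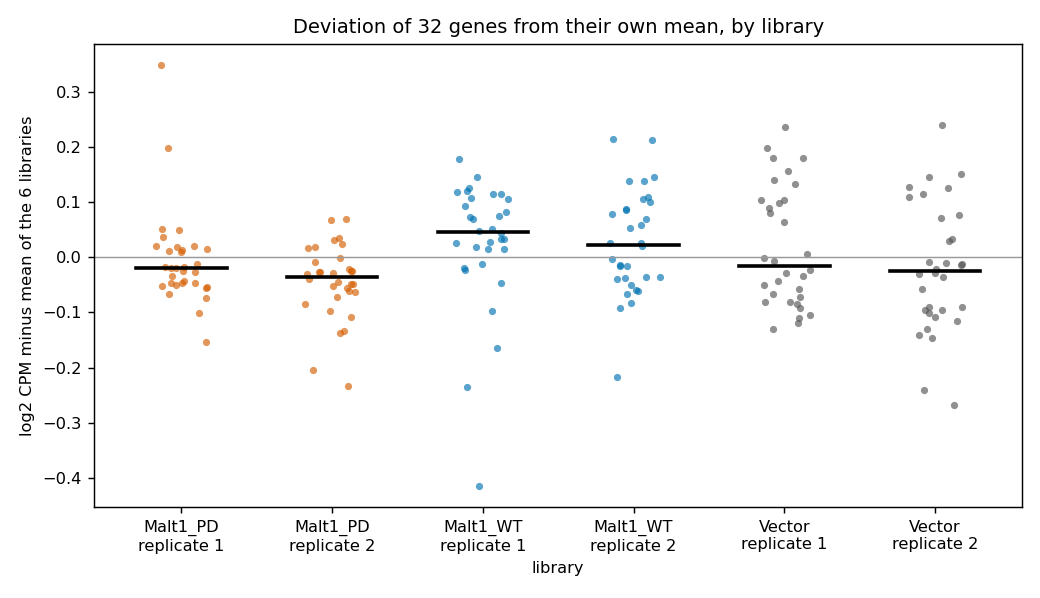
Log2 CPM minus the mean of the 6 libraries (y axis) for each of the 32 members tested (points) in each library (x axis), with the median as a black line. The medians of the Malt1_WT libraries, 0.05 and 0.02, are the highest.

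By role, the transporters came first in the path of glucose and lactate. Slc16a3, the MCT4 lactate exporter, had 832 and 844 CPM in Malt1_PD, 849 and 869.5 CPM in Malt1_WT, against 787 and 769 CPM in Vector. All 4 libraries with added Malt1 lay above Vector, at log2 fold changes of 0.11 ± 0.07 for Malt1_PD and 0.14 ± 0.07 for Malt1_WT (SE; edgeR adjusted p of 0.711 and 0.719). Per length, Slc16a3 averaged 155 RPKM and Slc2a1 averaged 94.8 RPKM over the 6 libraries.

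Among the enzymes from hexokinase to triose phosphate isomerase, 4 of 8 tested were above 0 in Malt1_PD against Vector, 7 of 8 in Malt1_WT against Vector, and 0 of 8 in Malt1_PD against Malt1_WT. Hexokinase was split nearly evenly between its isozymes. Hk2, the isozyme typical of tumour cells, made up 47.9% and 48.2% of the summed RPKM of Hk1 and Hk2 in Malt1_PD, 47.4% and 45.7% in Malt1_WT, and 46.4% and 43.5% in Vector. The share was highest in the Malt1_PD libraries and lowest in Vector replicate 2, and Malt1_WT overlapped Vector. Hk2 itself had 188 and 189.8 CPM in Malt1_PD, 194 and 203.5 CPM in Malt1_WT, against 179.7 and 186 CPM in Vector, so that no 2 groups overlapped.

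All 3 phosphofructokinase genes were expressed. Pfkl made up 45.6% to 49.6% of their summed RPKM over the 6 libraries, Pfkp, the platelet type, 29.5% to 33.2%, and Pfkm, the muscle type, 20.01% to 22.5%. Pfkl had 383 and 386 CPM in Malt1_PD, which lay between the Malt1_WT and the Vector values given above. Pfkm had 84.3 and 81.7 CPM in Malt1_PD, 85.9 and 81.0 CPM in Malt1_WT, against 83.4 and 82.4 CPM in Vector. Pfkm varied least of the members, with a coefficient of variation of 2.17% over the 6 libraries. Pfkp had 484 and 496 CPM in Malt1_PD, 487 and 511 CPM in Malt1_WT, against 452 and 517 CPM in Vector, and the groups overlapped. Exons of Pfkp share 748 bases with Pitrm1 on the opposite strand, and whether counting used strand is not given in the sources used here, which leaves the Pfkp counts less certain.

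Aldolase messenger RNA was nearly all Aldoa, with at least 99.98% of the summed RPKM of Aldoa and Aldoc in each library. Aldoc, the brain aldolase, had 0 and 1 counts in Malt1_PD, 2 and 6 counts in Malt1_WT, and 4 and 2 counts in Vector. These counts lie near the floor of 3 counts a library, and no fold change is given for them. Aldoa had 1795 and 1718 CPM in Malt1_WT, which overlapped the Vector values. Gpi1, the glucose phosphate isomerase, had 712 and 708 CPM in Malt1_PD, 761 and 733 CPM in Malt1_WT, against 711 and 712 CPM in Vector. Malt1_WT was the highest group, by 0.07 log2 units over Vector (SE 0.07, edgeR adjusted p = 0.891). Tpi1, which interconverts the triose phosphates, had 2156 and 2165.5 CPM in Malt1_PD, 2427 and 2135 CPM in Malt1_WT, against 2463 and 2092 CPM in Vector. Its Malt1_PD libraries lay close together and within the range of both other groups.

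The enzymes from glyceraldehyde phosphate dehydrogenase to lactate dehydrogenase held the 3 most abundant members, Gapdh, Ldha and Pgk1, and also Eno2, at 3.35 RPKM one of the lowest. Mean RPKM over the 6 libraries was 1601 for Gapdh, 1216 for Ldha, 882 for Pgk1, 719 for Pkm and 663 for Eno1, with Tpi1 at 814 and Aldoa at 606 among the enzymes before them. The 6-library ranges of Pgk1 and Tpi1 overlapped, as did those of Pkm and Eno1, and those of Eno1 and Aldoa, while Gapdh and Ldha each stood apart from every other member. Against Vector, 6 of the 7 genes from Gapdh to Ldha were below 0 in Malt1_PD and 4 of 7 in Malt1_WT.

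Ldha, which turns pyruvate into lactate, had 3948 and 3945 CPM in Malt1_PD, 4363 and 3911 CPM in Malt1_WT, against 4316 and 3671 CPM in Vector. The Malt1_PD libraries lay inside the range of each other group, and the widest gap was between the Vector libraries themselves. Its log2 fold changes were -0.02 ± 0.09 in Malt1_PD and 0.05 ± 0.09 in Malt1_WT against Vector (SE; edgeR adjusted p of 0.974 and 0.944). The main fit, which does not pair libraries, thus called no change of Ldha. By replicate number, Malt1_WT lay above Vector each time, a pairing that the labels do not state. Without Vector replicate 1 and Malt1_WT replicate 1, which leaves lone libraries in these groups, the log2 fold changes were 0.11 in Malt1_PD and 0.09 in Malt1_WT. The sister gene Ldhb, below the filter, had 0 to 3 counts in each library.

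Eno1, the main enolase, had 3451 and 3439 CPM in Malt1_PD, 3647 and 3524 CPM in Malt1_WT, against 3791 and 3544 CPM in Vector. Malt1_PD lay lowest without overlap, at -0.09 ± 0.06 log2 units against Vector (SE; edgeR adjusted p = 0.742). Eno1 made up 99.4% to 99.6% of the summed RPKM of Eno1 and Eno2. Eno2 had 14.7 and 14.7 CPM in Malt1_WT, within the range of Malt1_PD and below Vector. Pgam1 had 422 and 424 CPM in Malt1_WT, between its Malt1_PD and Vector values, and Gapdh had 6679 and 6344 CPM in Malt1_WT, below both Vector values. Pgk1 and Pkm, which make ATP, lay between 1911 and 2125 CPM and between 3372 and 3799 CPM, and overlapped between Malt1_PD and Vector. Gapdh has 163 genes of similar sequence in the annotation that together hold 2.83% of the counts of Gapdh and them. Reads may thus be split among copies, and this share of assigned counts sets no bound on it.

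**Figure D3:**
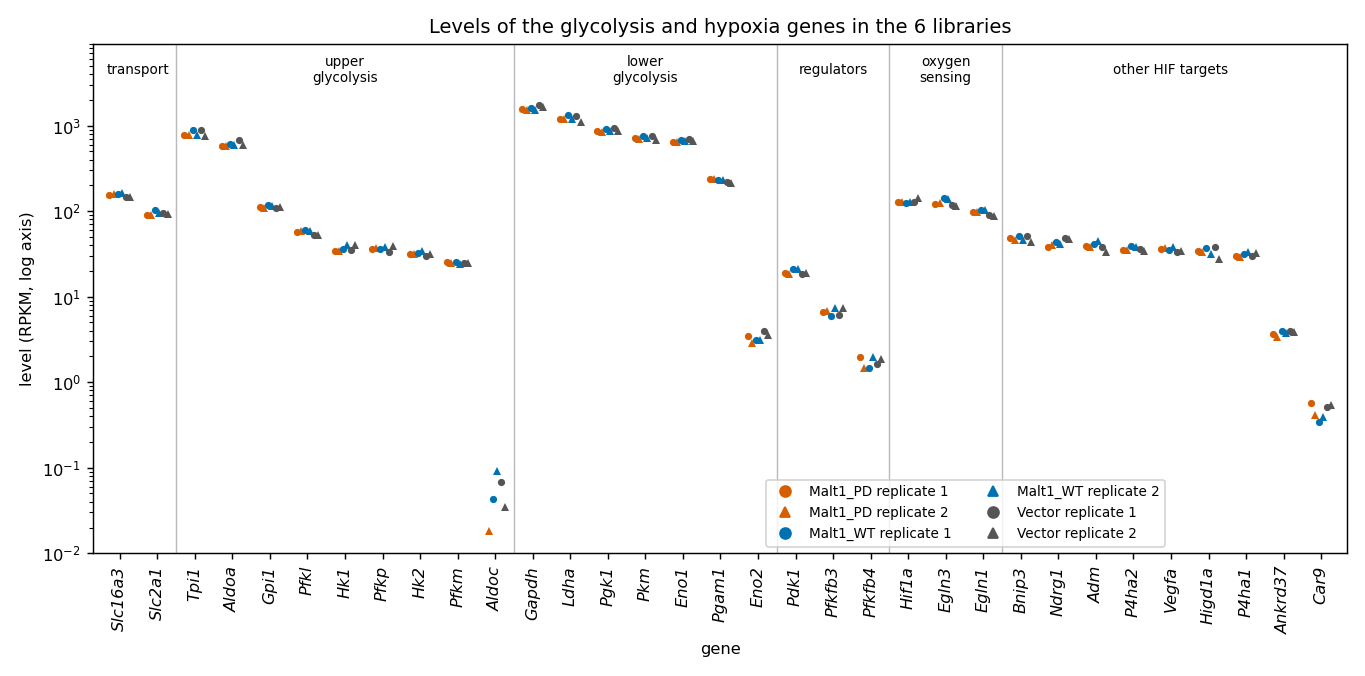
Level of each of the 33 genes in RPKM (y axis, log scale) in the 6 libraries (points; colour for population, shape for replicate), grouped by role along the x axis. Levels run from 1601 RPKM on average for Gapdh to under 1 RPKM for Car9 and Aldoc, and the libraries of a gene lie close together beside the differences between genes; the library of Malt1_PD with 0 counts of Aldoc is not drawn.

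Among the regulators, Pfkfb3 and Pfkfb4 make the allosteric activator of phosphofructokinase. Pfkfb3 had 49.5 and 50.9 CPM in Malt1_PD, 44.7 and 55.2 CPM in Malt1_WT, against 45.8 and 55.6 CPM in Vector. Pfkfb4 had 9.62 and 7.13 CPM in Malt1_PD, 7.12 and 9.72 CPM in Malt1_WT, against 8.05 and 9.08 CPM in Vector. All groups overlapped for both genes, and the spread between the libraries of a group exceeded the differences between groups. Pfkfb3 made up 76.8% to 82.2% of their summed RPKM.

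In oxygen sensing, Hif1a, the regulated alpha subunit of HIF, had 745 and 755 CPM in Malt1_PD, 736 and 752 CPM in Malt1_WT, against 745 and 829 CPM in Vector. Vector replicate 2 was the highest library and the other 5 lay close together. The log2 fold changes were -0.07 ± 0.08 in Malt1_PD and -0.08 ± 0.08 in Malt1_WT against Vector (SE; edgeR adjusted p of 0.836 and 0.888). Epas1, which encodes another HIF alpha subunit, had 0 to 3 counts in each library and was below the filter. Egln3 made up 55.3% and 55.9% of the summed RPKM of Egln1 and Egln3 in Malt1_PD, 57.7% and 57.2% in Malt1_WT, and 57.0% and 56.5% in Vector. That share was lowest in Malt1_PD and highest in Malt1_WT, with no overlap between the groups.

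Among the other HIF targets, Vegfa, the growth factor of blood vessels, had 154 and 160.0 CPM in Malt1_PD, 150.1 and 162 CPM in Malt1_WT, against 144 and 147 CPM in Vector. All 4 libraries with added Malt1 lay above Vector, at 0.11 ± 0.08 log2 units in Malt1_PD and 0.10 ± 0.08 in Malt1_WT (SE; edgeR adjusted p of 0.753 and 0.849). Adm had 64.0 and 62.0 CPM in Malt1_PD, which lay between the other groups. Car9, the tumour-type carbonic anhydrase that controls pH outside the cell, was barely expressed, with 1.33 and 0.951 CPM in Malt1_PD, 0.783 and 0.898 CPM in Malt1_WT, against 1.18 and 1.23 CPM in Vector. Malt1_WT was its lowest group, and the log2 fold change of -0.51 ± 0.39 against Vector had a 95% interval of -1.40 to 0.38 (edgeR adjusted p = 0.842). Its exons overlap Gm12454 on the opposite strand, which held 37 counts over the 6 libraries against 109 for Car9.

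Bnip3, a receptor for the removal of mitochondria, ranged from 99.7 to 116 CPM, and its groups overlapped in each comparison. Ankrd37, a small ankyrin-repeat gene induced by HIF, ranged from 5.23 to 6.08 CPM, with Malt1_PD below both other groups. Higd1a, a mitochondrial protein gene, had 104 and 99.96 CPM in Malt1_PD, 113 and 96.1 CPM in Malt1_WT, against 117 and 84.5 CPM in Vector. The Vector libraries of Higd1a enclosed all others. Bnip3 has 5 genes of similar sequence that hold 10.6% of their joint counts, and Ankrd37 overlaps Lrp2bp on the opposite strand, so both are less certain.

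The libraries of a group differed along gene length, and this touched the members. In Vector, replicate 1 minus replicate 2 had a Spearman rho with gene length of -0.67 over 9573 genes and -0.60 over the 32 members, given as a description, since genes of a library are not independent. In Malt1_WT the values were -0.53 and -0.33, and in Malt1_PD 0.05 and -0.38. Among the shorter members, Higd1a and Ldha were 0.47 and 0.23 log2 units higher in Vector replicate 1, and the long Hk1 was lower there. Members shorter than Higd1a ranged from -0.06 for Car9 to 0.24 for Tpi1, and Ankrd37, the shortest, was at 0.05. For Ldha and Tpi1 this gap between the Vector libraries exceeded the differences between populations, and its part in the results was not tested beyond the removal of the trend given for the counts above.

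**Figure D4:**
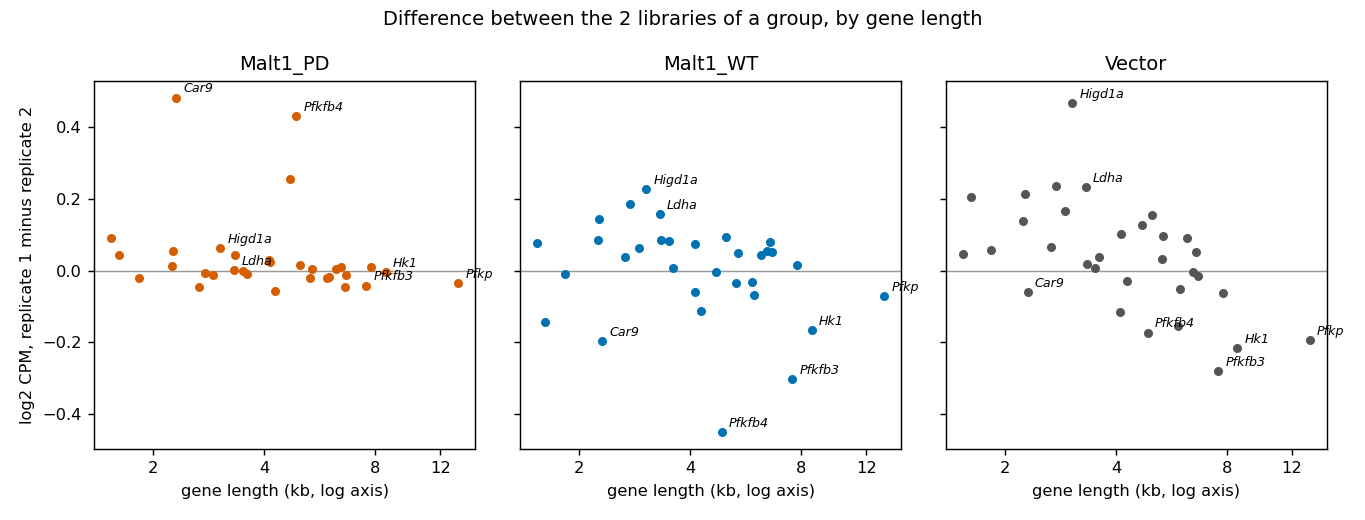
Log2 CPM of replicate 1 minus replicate 2 (y axis) against gene length in kilobases (x axis, log scale) for the 32 members tested, in Malt1_PD, Malt1_WT and Vector. In Vector the points run from Higd1a at 0.47 among the shorter genes to Pfkfb3 at -0.28 among the longer, while most Malt1_PD points lie near 0.

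Genes of the same pathways that are not members were counted in the same fit, from lists drawn up by function. edgeR called 0 genes of these lists in any of the 3 comparisons. Of 35 further HIF target genes, 28 were tested, with median log2 fold changes of 0.03 in Malt1_PD and 0.05 in Malt1_WT against Vector, and -0.04 in Malt1_PD against Malt1_WT, where 22 lay below 0 and 6 above. At an unadjusted p under 0.05 by edgeR, 4 of the 28 were higher in Malt1_PD against Vector (14.3%, beside 3.73% of all genes) and 2 lower (7.14%, beside 4.88%). In Malt1_WT against Vector, 6 were higher (21.4%, beside 3.30% of all genes) and 1 lower (3.57%, beside 3.80%). In Malt1_PD against Malt1_WT, 0 were higher and 1 lower (3.57%, beside 0.838% of all genes).

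Of these targets, Loxl2, a collagen cross-linking oxidase, had 80.8 and 84.1 CPM in Malt1_PD, 92.7 and 97.6 CPM in Malt1_WT, against 74.2 and 75.5 CPM in Vector. Ak4, a mitochondrial adenylate kinase, had 150.5 and 153 CPM in Malt1_PD, 159 and 153 CPM in Malt1_WT, against 127 and 129 CPM in Vector. Loxl2 stood at 0.35 ± 0.08 and Ak4 at 0.29 ± 0.08 log2 units in Malt1_WT against Vector (SE; edgeR adjusted p of 0.358 and 0.432). Angptl4, a secreted inhibitor of lipoprotein lipase, had 16.4 and 16.3 CPM in Malt1_PD, 15.9 and 15.0 CPM in Malt1_WT, against 12.3 and 11.04 CPM in Vector. Ero1l, an oxidase of protein folding in the endoplasmic reticulum, went the other way, with 305 and 318 CPM in Malt1_PD, 321 and 338 CPM in Malt1_WT, against 375 and 418 CPM in Vector. The log2 fold changes in Malt1_PD against Vector were 0.49 ± 0.13 for Angptl4 and -0.35 ± 0.08 for Ero1l (SE; edgeR adjusted p of 0.370 and 0.328). For Angptl4 and Ero1l, all 4 libraries with added Malt1 stood apart from Vector on the same side. In Malt1_PD against Vector, Ero1l passed the threshold in 4 of 15 alternative settings, among them the fit without Vector replicate 1, which called 111 genes over all (0.724%) and has a lone Vector library assumed to vary like the other groups.

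Txnip, which restrains glucose uptake by acting on glucose transporters and is itself raised by glucose, had the smallest p of all these lists against Vector. It had 49.2 and 51.1 CPM in Malt1_PD, 50.3 and 53.1 CPM in Malt1_WT, against 75.8 and 68.8 CPM in Vector. The 4 libraries with added Malt1 lay close together, below both Vector libraries, at -0.53 ± 0.09 log2 units in Malt1_PD and -0.48 ± 0.09 in Malt1_WT (SE; edgeR adjusted p of 0.165 and 0.263). Txnip passed the threshold in 6 of 15 alternative settings in Malt1_PD and in 5 of 15 in Malt1_WT. It did so with the length trend removed, at edgeR adjusted p of 0.0253 in Malt1_PD and 0.0475 in Malt1_WT, but not with DESeq2 or with the replicate block alone. It also passed without Vector replicate 2, a fit that called 6.05% of all genes in Malt1_PD and 599 genes (3.91%) in Malt1_WT.

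Slc2a3, the GLUT3 glucose transporter, had 18.8 and 19.9 CPM in Malt1_PD, 23.9 and 23.9 CPM in Malt1_WT, against 19.5 and 20.6 CPM in Vector. Malt1_WT stood above both other groups, with Malt1_PD at -0.31 ± 0.11 log2 units against Malt1_WT (SE; unadjusted p = 0.0207, edgeR adjusted p = 1). Of the list of other glycolytic paralogs and transporters, 16 of 23 genes were tested, with 8 above and 8 below 0 against Vector in both populations. The lists for pyruvate entry into mitochondria (13 tested), the pentose phosphate pathway (8 tested), glycogen and gluconeogenesis (9 tested), HIF subunits and regulators (11 tested) and glycolysis regulators outside HIF (10 tested) had medians between -0.07 and 0.08 in every comparison. Pdp1, the phosphatase that opposes Pdk1, was at 22.9 ± 0.505 CPM in Malt1_PD, 23.3 ± 0.00677 CPM in Malt1_WT and 27.8 ± 0.572 CPM in Vector (SD, n = 2 each). Pck2, the mitochondrial phosphoenolpyruvate carboxykinase, averaged 123 ± 3.18 CPM in Malt1_PD, 134 ± 6.80 CPM in Malt1_WT and 149 ± 5.36 CPM in Vector (SD, n = 2 each). Vhl, part of the ligase that degrades HIF alpha subunits, averaged 48.9 ± 3.42 CPM in Malt1_PD, 50.6 ± 4.09 CPM in Malt1_WT and 42.1 ± 4.39 CPM in Vector (SD, n = 2 each). The edgeR adjusted p for these 3 genes against Vector lay between 0.436 and 0.75.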

How the data were processed

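Per the labels' protocols, total RNA went into 6 directional libraries, sequenced as paired reads of 150 bases. The authors deposited whole-number counts per gene, not normalised, and beside them gene lengths. The submitters' processing notes name Trim Galore 0.6.0, STAR 2.7.3a, featureCounts 1.6.3 and the genome build GRCm38.p6. Whether counting used strand is not given in the sources used here. The table's 6 further per-sample columns, of log2 RPKM, were not used. A spreadsheet had turned 25 symbols into dates, which were restored from the gene identifiers. Of 28063 identifiers, 28056 matched GENCODE M21 without their version, and gene lengths equalled the union of exons for all 27368 that matched with it.

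The deposited counts entered edgeR 4.0.16 under R 4.3.3 (TMM, filterByExpr by group, glmQLFit and glmQLFTest, 1 mean per group, all 6 libraries, no covariate). P-values were adjusted over the 14675 genes tested, and an adjusted p under 0.05 was called. Standard errors come from the quasi-likelihood F. The script was tested on simulated data. Groups come from the sample titles. RPKM were computed from the scaled counts and the deposited gene lengths. Alternatives were DESeq2 1.42.0, limma-voom (limma 3.58.1), other scalings and filters, removal of a loess trend with gene length, the replicate number as a block, and leaving out libraries. With 2 libraries per group the fit has 3 residual degrees of freedom, and counts below 3 in a library are near the floor, which covers counting error only. Genes of similar sequence are those whose transcripts share at least 90% identity over at least 500 bases.

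The members and all lists were chosen with earlier results of these data known, so no test was made over a list. All members are named. Values in each library are given for the 6 members with the smallest unadjusted p in each comparison and for isozyme sets. They are also given for Slc2a1, Ldha, Hif1a, Vegfa and Car9. Of the other lists, some genes of smallest p are given, by library or as mean and SD, and not all such genes are reported. Other values given by library go beyond this rule and were chosen after they were seen.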

Additional observations from a re-analysis of the deposited data

How the results depend on the processing

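Of 1440 log2 fold changes of members under 15 alternatives, 1406 kept their direction, or moved across 0 within their own standard error, and their side of the threshold, 32 came to pass it and 2 turned. Most of those that came to pass were from the fit without Vector replicate 1 and Malt1_WT replicate 1. That fit leaves a lone library in each of these groups. Calls over all genes depended on the setting. Against Vector, no filter on low counts gave 188 calls in Malt1_PD and 113 in Malt1_WT, DESeq2 gave 34 and 27, and removal of the length trend gave 86 and 51. In Malt1_PD against Malt1_WT, no filter gave 12. The cause of these shifts was not tested.

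Same-numbered libraries deviated alike in Malt1_WT and Vector, but not in Malt1_PD. Their deviations correlated at 0.68 between Malt1_WT and Vector, 0.03 between Malt1_PD and Malt1_WT, and -0.01 between Malt1_PD and Vector. The replicate block gave 9 calls in Malt1_PD and 6 in Malt1_WT against Vector, and 1 in Malt1_PD against Malt1_WT, none of them a member. With the length trend removed as well, the block gave 230 and 165 calls against Vector, of which 1 was a member, Egln3 in Malt1_WT (edgeR adjusted p = 0.0346).

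Leaving out libraries gave between 0 and 2080 calls in Malt1_PD against Vector (0 to 15 members), 1 to 936 in Malt1_WT against Vector (0 to 11 members), and 1 to 358 in Malt1_PD against Malt1_WT (0 to 3 members). The call of Malt1 itself in Malt1_PD against Vector was lost without Malt1_PD replicate 1 (edgeR adjusted p = 0.598) or replicate 2 (0.24), with log2 fold changes of 1.79 and 1.94, against 1.87 with all libraries. The most calls, over all genes and among members, came without Vector replicate 1 and Malt1_WT replicate 1 together. In that fit the lone libraries are assumed to vary like the Malt1_PD pair. The members' median ran from -0.0217 to 0.0029, from 0.0401 to 0.0761, and from -0.0866 to -0.0461 in these comparisons. In Malt1_WT against Vector, the log2 fold change ran from -0.1545 to 0.0061 for Aldoa, from -0.1575 to 0.0019 for Hif1a, from -0.2503 to 0.0141 for Gbe1 and from -0.0541 to 0.4275 for Egln2. For Arnt2 in Malt1_PD against Malt1_WT it ran from -0.9621 to 0.1031. With 2 libraries a group and 3 residual degrees of freedom, the members' 95% intervals had a median reach of about 0.18 log2 units. These intervals are not adjusted for the number of genes. Larger differences, such as 0.27 for Egln3 in Malt1_WT against Vector, still did not pass the adjusted test of the main fit.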
